A study of Homo sapiens with 6 samples.

Results

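Imprinted genes, which are transcribed mainly from the copy inherited from one parent, were examined in A-498 cells treated with zebularine. The set held 34 genes of known imprinted domains and single imprinted loci. A probe set was counted where the array annotation gave it exactly 1 symbol and that symbol was in the set, dim probe sets included; SLC22A18 was listed under SLC67A1. This gave 57 of the 22277 probe sets on the array, for 27 of the 34 genes, out of 11963 genes with such a probe set. SNRPN, SNURF and ZIM2 were named only on 6 probe sets that carry several symbols, and these genes and H19, OSBPL5, COPG2 and NAP1L5 were not analysed here.

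The established human cell line A-498 derives from a kidney tumour, a renal cell carcinoma. Zebularine is an analogue of cytidine that inhibits DNA methyltransferases. Each of 3 numbered experiments gave 1 array of untreated cells and 1 array of cells grown with 1000 µM zebularine, both sampled at 120 h. The cells were kept as a monolayer in RPMI-1640 with fetal calf serum and were passaged during the treatment. The series asked how expression changes overall after inhibition of DNA methyltransferases, and allele-specific expression and DNA methylation were not measured.

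In an imprinted domain, DNA methylation laid down in the egg or the sperm marks an imprinting control region on 1 parental copy, and the maintenance methyltransferase DNMT1 copies that mark at each cell division. In the KCNQ1 domain the unmethylated paternal copy transcribes the antisense RNA KCNQ1OT1, which keeps neighbouring genes on that copy silent, whereas NDN, MAGEL2 and MKRN3 have methylated promoters on the silent maternal copy. Loss of such methylation can therefore be accompanied by more transcript from some genes of a domain and less from others. Many of these genes act in placental and fetal growth and in neurons.

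Promoters in the set ranged from rich in CG pairs, the sequence that DNA methyltransferases act on, to free of them. RefSeq's promoter table (GRCh38.p14) held 47 start sites of 18 of the 27 genes. In the 250 bases before those starts the number of CG pairs ran from 0 to 40 with a median of 17, and 33 starts had at least 11, the median over all 35116 starts in the table. The letters TGCCGC, read on either strand, form the hexamer bound by ZFP57, a zinc finger protein that keeps methylation at imprinting control regions; it was the 1 motif searched. It was present before 12 of the 47 starts, 25.5%, in 9 genes, and before 12.7% of all starts. Such a match is a description of these letters and not a bound site. The following 3 stretches, written 5′ to 3′ in the direction of the gene with every CG in capitals, are shown because they belong to the member that was called in a fit, to a dim member that was higher in every experiment and to a tested member with no CG in this window. The SLC22A18 stretch lies at chr11:2902028-2902277 on the plus strand with 25 CG pairs, that of NDN at chr15:23687306-23687555 on the minus strand with 30, and that of CPA4 at chr7:130292911-130293160 on the plus strand with 0. The hexamer is in the NDN stretch and in neither of the others.
SLC22A18: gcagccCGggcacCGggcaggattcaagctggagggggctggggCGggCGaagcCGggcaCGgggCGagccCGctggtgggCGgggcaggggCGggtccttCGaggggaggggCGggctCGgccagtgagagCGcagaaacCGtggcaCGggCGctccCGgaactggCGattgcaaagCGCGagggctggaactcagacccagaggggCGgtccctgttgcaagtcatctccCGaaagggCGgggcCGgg
NDN: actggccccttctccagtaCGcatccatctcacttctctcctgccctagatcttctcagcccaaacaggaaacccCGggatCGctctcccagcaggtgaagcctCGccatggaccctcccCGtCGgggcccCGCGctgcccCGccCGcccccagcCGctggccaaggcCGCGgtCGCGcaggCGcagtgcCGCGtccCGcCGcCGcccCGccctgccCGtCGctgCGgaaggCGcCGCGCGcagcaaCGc
CPA4: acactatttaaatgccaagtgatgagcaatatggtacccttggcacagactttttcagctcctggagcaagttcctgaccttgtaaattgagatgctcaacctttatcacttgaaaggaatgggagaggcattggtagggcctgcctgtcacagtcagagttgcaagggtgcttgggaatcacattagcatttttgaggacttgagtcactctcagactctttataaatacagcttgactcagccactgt

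The values are signal intensities in arbitrary units from the MAS5 software, and differences are treated minus untreated on the scale of log2(signal + 16.34). Array medians ran from 118 to 141. Both arrays of experiment 3 had lower maxima, 31176 and 28720.5 against 66290 to 71174 on the other 4 arrays. The ratio of 3′ to 5′ signal of ACTB, a sign of RNA integrity, was 5.25 on the treated array of experiment 1, 3.10 on its untreated partner and 1.49 to 2.38 on the others. For GAPDH that ratio was 1.34 on the treated array of experiment 1, 1.52 on its untreated partner and 1.01 to 1.19 on the others. Of 24 probe sets of kidney and epithelial markers 16 were bright enough to test. Among them were those of KRT8, KRT18, VIM and the renal factor PAX8, while CDH1, EPCAM, AQP1 and LHX1 were dim. Both dim probe sets of AQP1 were higher in all 3 experiments, by means of 0.81 and 1.23, against 16.4% of all dim probe sets. At the latter the groups did not overlap, against 6.73%. Those of CDH1 had means of -0.32 and -0.63, and EPCAM and LHX1 had -0.01 and 0.09. The median difference of the 16 tested probe sets, which came from 6 genes and mostly from PAX8 and CDH6, was -0.55. It was -1.59, -0.40 and -0.17 in experiments 1, 2 and 3. In all 3 experiments 9 were lower, against 21.8% of all tested, and 2, of VIM and PAX8, were higher, against 20.9%. Limma called 2 lower (0.295% of all tested) and, with the experiment as a block, 4 (2.32% of all). All were of the kidney cadherin gene CDH6. The part of this shift in the members' values was not tested. For other cells, 0 of 8 probe sets of blood markers and 1 of 8 of endothelial markers were bright enough to test. The summed signal of the blood markers was 141 to 428 in untreated and 246 to 434 in treated cells.

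Testing was limited to probe sets with a signal of 78.5 or more on 3 or more of the 6 arrays. This held for 34 member probe sets of 15 genes, of which 26 reached the level on all 6 arrays and 4 on exactly 3. Of those 4, 0 reached it in 1 group only. The second PHLDA2 probe set reached it on every treated array but, among untreated arrays, only in experiment 1. It was thus tested through the group with the higher mean. A GNAS probe set, with the largest tested mean difference, reached it on both arrays of experiment 2 and the treated array of experiment 3. The other 23 member probe sets were dim, and 12 genes had only dim ones. A dim signal can come from binding other than that of the named transcript, and its fold is not well measured. Fewer cells with a transcript and less transcript per cell cannot be told apart in these bulk samples.

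Of the 15 tested genes 0 passed the test without regard to the experiment. Within experiments SLC22A18 was lower and no other tested member passed. Without regard to the experiment, limma (Benjamini-Hochberg adjusted p under 0.05, over 13548 probe sets) called 0 of 34 member probe sets higher and 0 lower, where it called 0.325% of all tested probe sets higher and 0.295% lower. With the experiment as a block it called 0 members higher and 1 lower, SLC22A18 (2.94% of the 34), against 1.91% and 2.32% of all. Counts this small from 34 probe sets do not set the members apart from all tested probe sets. At an unadjusted p under 0.05 limma gave 1 member (12.6% of all), SLC22A18, and with the block 3 (20.7% of all), SLC22A18, PHLDA2 and SGCE. The experiment numbers pair the arrays, so the blocked p is given beside the unblocked one for members with 1 direction in all 3 experiments. For no other member did the block change the call.

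The median difference of the 34 tested member probe sets was 0.10, against -0.01 over all tested probe sets. It was 0.10, 0.08 and 0.07 in experiments 1, 2 and 3, against -0.02, -0.02 and 0.02 over all. Taking the brightest tested probe set of each of the 15 genes gave 0.14, and 0.12 without ATP10A, whose brightest probe set is dim. The median over the 34 was at -0.03 without the treated array of experiment 1 and at -0.01 without both arrays of experiment 1, 0.02 without the untreated array of experiment 2, 0.01 without the untreated array of experiment 3 and 0.17 without the treated array of experiment 2. The members lay on both sides of 0: 21 of 34 mean differences were positive and 13 negative, from -0.87 for SLC22A18 to 1.08 for a weak probe set of GNAS.

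The 3 experiments gave 1 direction for 8 of the 34 member probe sets. Of the 34 tested probe sets 7 were higher in all 3 experiments, 20.6% against 20.9% of all tested, and 1 was lower in all 3, 2.94% against 21.8% of all. The 7 were PHLDA2, SGCE, BLCAP, 2 probe sets of GRB10 and 2 of GNAS, and the 1 was SLC22A18. The treated and untreated groups did not overlap in 0 members in the higher direction and 0 in the lower, against 8.72% and 8.88% of all tested probe sets. The genes were also grouped by the parent whose copy is reported as transcribed where they are imprinted. The median over the brightest tested probe set of each gene was 0.14 for 7 maternally expressed genes (0.12 for 6 without ATP10A), 0.31 for 5 paternally expressed genes and -0.03 for 3 genes whose imprinting depends on isoform or tissue or is disputed. The maternal group includes UBE3A, which is active on both copies in most cells other than neurons. The paternal group includes INPP5F, which has 1 imprinted variant. Which copy A-498 cells transcribe was not measured. These groups are small and each holds both signs.

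**Figure D1:**
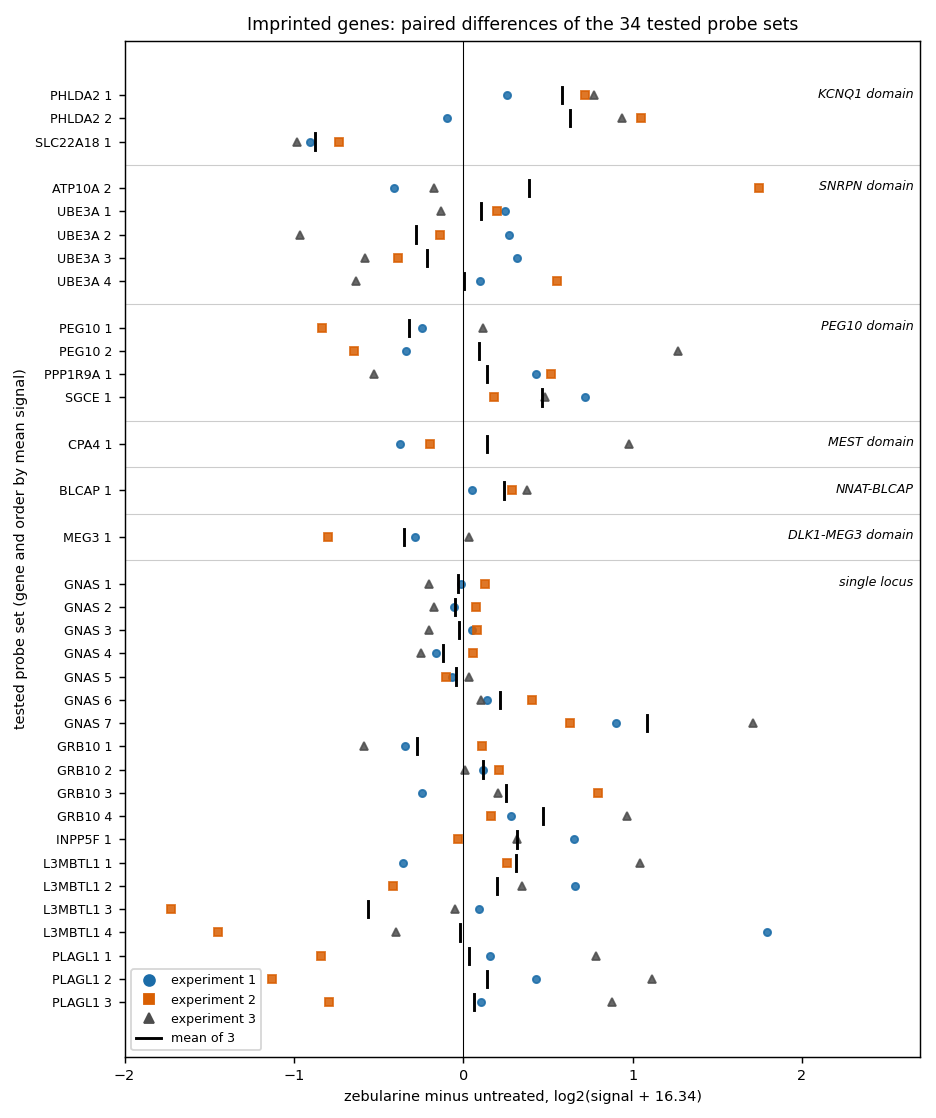
Difference between zebularine and untreated cells, log2(signal + 16.34), for the 34 tested probe sets of imprinted genes, grouped by domain; points are the 3 experiments, the bar is their mean, and the number after a gene orders its probe sets from the brightest. The 3 points of SLC22A18 lie together between -0.98 and -0.73, while those of UBE3A, PLAGL1, PEG10 and L3MBTL1 fall on both sides of 0.

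In the KCNQ1 domain on chromosome 11, SLC22A18 was lower and the brighter of 2 PHLDA2 probe sets higher in treated cells of every experiment. SLC22A18 encodes an organic cation transporter-like membrane protein and is expressed mainly from the maternal copy. Its signal went from 1883.3 to 996.7 in experiment 1, from 840.7 to 498.6 in experiment 2 and from 1711.1 to 858.0 in experiment 3. The treated array was thus at 0.529, 0.593 and 0.501 of its untreated partner, although the groups overlap because untreated cells of experiment 2 were below treated cells of experiments 1 and 3. The group means were 1478 ± 559 and 784 ± 257 (SD, n = 3). The mean difference was -0.87 with a standard error of 0.35 in the fit without the block (limma, Benjamini-Hochberg adjusted p = 0.321) and 0.21 with it (adjusted p = 0.0363). The call with the block was present without experiment 2, at -0.94 (limma, adjusted p = 0.024), and absent without experiment 1, at -0.86 (adjusted p = 0.184), or experiment 3, at -0.82 (adjusted p = 0.149). The 2 start sites of this gene in the promoter table had 22 and 25 CG pairs.

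PHLDA2, a small protein with a lipid-binding domain that restrains placental growth, is likewise expressed from the maternal copy. At its brighter probe set the signal went from 2337.4 to 2793.6, from 1921.6 to 3178.2 and from 3037.3 to 5203.9. It was higher in each experiment, and the groups overlapped at the treated array of experiment 1. The mean difference of 0.58 ± 0.29 (standard error) did not pass the test (limma, adjusted p = 0.432, and 0.0981 blocked), and it was 0.32 without the treated array of experiment 3. The second probe set, near the level for testing, went from 93.6 to 86.7, 32.2 to 84.0 and 37.4 to 86.4, with a mean difference of 0.63 (limma, adjusted p = 0.694). These 2 maternally expressed neighbours thus lay on opposite sides of 0 in every experiment at their bright probe sets.

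KCNQ1, the potassium channel gene of the domain, was dim at both probe sets. One went from 36.5 to 37.2, 104.2 to 53.3 and 16.3 to 86.1, with no shared direction. The other went from 51.2 to 18.9, 26.8 to 10.6 and 32.4 to 31.5, lower each time, with a mean difference of -0.55 that was -0.35 without the treated array of experiment 2. The probe set that the annotation names KCNQ1OT1 went from 8.6 to 56.4, 8.4 to 19.2 and 11.4 to 102.5. All 3 treated arrays lay above all 3 untreated arrays, and 1 of them passed 78.5. Its mean difference was 1.39, and in the fit of all 22215 probe sets without the filter it was not called (limma, adjusted p = 0.381 unblocked and 0.207 with the block). The annotation pairs this probe set with an accession that it also gives for KCNQ1 messenger RNA, so which of these overlapping transcripts it reads is uncertain.

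**Figure D2:**
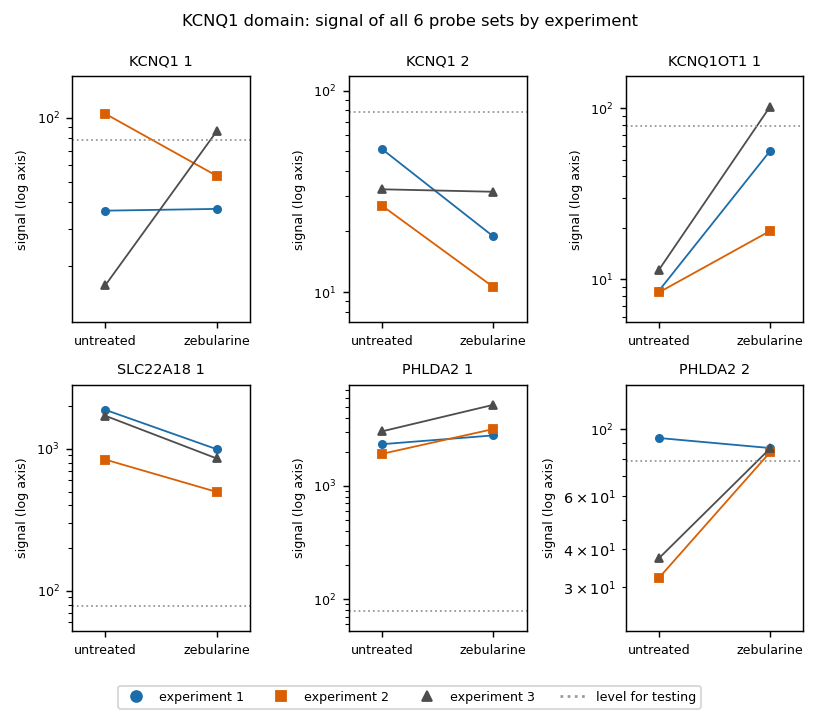
Signal (log axis) of the 6 probe sets of the KCNQ1 domain in untreated and zebularine-treated cells, with a line joining the arrays of each experiment and the level of 78.5 used for testing dotted. The 3 lines of SLC22A18 run down and those of the brighter PHLDA2 probe set run up, while the KCNQ1OT1 probe set starts at 8.4 to 11.4 and ends at 19.2 to 102.5.

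The SNRPN domain on chromosome 15, the region of Prader-Willi and Angelman syndromes, was mostly dim for its paternally expressed genes. NDN, which encodes the neuronal growth suppressor necdin, went from 6.7 to 107.8 in experiment 1, 7.8 to 24.9 in experiment 2 and 8.0 to 12.3 in experiment 3. The untreated values were close together, and the treated values were all higher but far apart. Only experiment 1 passed 78.5, and the mean difference of 1.15 was not called without the filter (limma, adjusted p = 0.512, and 0.325 with the block). It was 0.53 without the treated array of experiment 1, the array with the highest ACTB ratio, and 0.50 without both arrays of that experiment. The part of that ratio in the value was not tested. MAGEL2, a partner of ubiquitin ligases, stayed between 2.8 and 12.2 on every array. MKRN3, a ring finger ubiquitin ligase gene, went from 53.9 to 8.2, 55.0 to 63.1 and 11.6 to 15.0. Neither of these neighbours of NDN was higher in all 3 experiments.

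UBE3A, the ubiquitin ligase gene that is imprinted in neurons and active on both copies in most other cells, was bright. At its brightest probe set the signal went from 1268.9 to 1510.4, 863.9 to 995.0 and 1284.5 to 1172.2, a mean difference of 0.11 ± 0.27 (standard error; limma, adjusted p = 0.905). All 4 tested probe sets were higher in experiment 1, by 0.10 to 0.32, and all 4 lower in experiment 3, from -0.97 to -0.13. In experiment 2 they split, 2 higher and 2 lower. The other 2 probe sets of UBE3A were dim and ran from 5.7 to 156.3. ATP10A, a lipid flippase gene, had 1 tested probe set, from 31.8 to 19.9, 17.1 to 96.0 and 108.4 to 94.1, and a dim one that was likewise higher in experiment 2 and not in the others.

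Markers of neurons and smooth muscle were looked at beside these genes, since several of them are active in neurons. Of their 12 probe sets 5, of 3 genes, were tested, with a median difference of 0.40. Limma called 0 of the 5 without the block, against 0.325% higher and 0.295% lower of all tested. With the block it also called 0, against 1.91% and 2.32%, and 5 probe sets are too few to differ from such shares. In all 3 experiments 2 of the 5 were higher and 0 lower, against 20.9% and 21.8% of all tested probe sets. The summed signal of the 12 was 4479 to 6700 in untreated and 6126 to 8797 in treated cells, most of it from the tubulin gene TUBB3. ACTG2 and SNAP25 were also bright enough to test. The smooth muscle markers MYH11 and DES and the synaptic marker SYP were dim at every probe set. The part of these markers in the values of NDN was not tested.

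The PEG10 domain on chromosome 7 held SGCE, which was higher in every experiment, and PEG10, which was not. SGCE encodes epsilon-sarcoglycan, a membrane protein, from the paternal copy. Its signal went from 3081.5 to 5089.2, 3312.0 to 3764.5 and 1924.1 to 2693.5. Each treated array was above its partner while the groups overlapped, and the mean difference of 0.46 ± 0.30 (standard error) did not pass (limma, adjusted p = 0.561, and 0.167 with the block). It was 0.22 without the untreated array of experiment 3, 0.24 without the treated array of experiment 1 and 0.69 without the treated array of experiment 3. PEG10, a paternally expressed gene derived from a retrotransposon, shares a promoter region with SGCE. Its brighter probe set went from 369.1 to 309.1, 706.4 to 388.4 and 685.4 to 745.6, and the other from 145.8 to 112.0, 202.0 to 123.4 and 82.6 to 221.5. Both were lower in experiments 1 and 2 and higher in experiment 3, with means of -0.32 and 0.09 (limma, adjusted p = 0.759 and 0.951).

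The maternally expressed PPP1R9A, which encodes the actin-binding protein neurabin, went from 94.7 to 133.5, 94.0 to 141.8 and 120.5 to 78.5. Its direction in experiment 3 was opposite to that of the other experiments. The homeobox gene DLX5, whose imprinting is disputed, was dim on every array, between 7.3 and 48.7.

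In the MEST domain, also on chromosome 7, the directions differed between experiments for both genes with a probe set. CPA4, a secreted carboxypeptidase gene expressed from the maternal copy, went from 274.1 to 207.8, 322.9 to 280.0 and 145.4 to 302.8, a mean difference of 0.14 ± 0.34 (standard error; limma, adjusted p = 0.903). Without both arrays of experiment 3 it was at -0.28. The paternally expressed MEST, which encodes a hydrolase-like protein of mesoderm, was dim, going from 6.4 to 65.4, 14.3 to 4.2 and 69.0 to 31.5.

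At the NNAT and BLCAP locus on chromosome 20, the small gene NNAT lies inside an intron of BLCAP. BLCAP went from 897.2 to 929.8, 683.6 to 837.1 and 583.1 to 761.8, higher each time with overlapping groups. Its mean difference was 0.24 ± 0.26 (standard error; limma, adjusted p = 0.749 unblocked and 0.575 blocked), and it ran from 0.10 without the untreated array of experiment 3 to 0.40 without the untreated array of experiment 1. NNAT, which encodes the membrane protein neuronatin from the paternal copy, was dim and went from 27.3 to 136.1, 23.8 to 69.2 and 27.7 to 14.4. Its untreated values were close together, and it was higher in experiments 1 and 2 and lower in experiment 3, with its highest value on the array with the highest ACTB ratio.

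In the DLK1 and MEG3 domain on chromosome 14, the maternally expressed noncoding RNA MEG3 lay near the level for testing. It went from 103.6 to 82.0, 82.6 to 40.6 and 60.5 to 62.3, a mean difference of -0.35 ± 0.53 (standard error; limma, adjusted p = 0.833). It was -0.14 without the treated array of experiment 2, -0.20 without the untreated array of experiment 1 and -0.54 without the treated array of experiment 1. A further MEG3 probe set was dim, between 7.5 and 15.3. DLK1, a paternally expressed transmembrane protein gene related to Notch ligands, was dim, going from 3.0 to 2.7, 11.4 to 8.2 and 45.9 to 12.3. It was lower in each experiment, with most of its difference from experiment 3.

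PEG3, a paternally expressed zinc finger gene on chromosome 19, was dim at both probe sets. The brighter went from 47.0 to 2.6, 40.8 to 70.8 and 20.2 to 6.7, and the other from 37.4 to 43.5, 4.1 to 10.7 and 11.6 to 24.5. Their mean differences of -0.60 and 0.37 had opposite signs. The first was -1.29 without the treated array of experiment 2, -0.33 without the treated array of experiment 3, -0.19 without the treated array of experiment 1 and -0.03 without both arrays of experiment 1.

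GNAS on chromosome 20 was the brightest of the single loci and had the most probe sets, 9, of which 7 were tested. The gene encodes the stimulatory G protein alpha subunit, which is made from both copies in most tissues, and from other promoters it gives transcripts that are expressed only from the maternal or only from the paternal copy. At the brightest probe set the signal went from 13360.8 to 13216.0, 8427.4 to 9208.4 and 9031.8 to 7838.8, a mean difference of -0.03 ± 0.28 (standard error; limma, adjusted p = 0.98). Its sign changed with the scaling, to 0.05 after quantile normalization. The 5 brightest probe sets had mean differences from -0.12 to -0.02, and the next brightest, also higher in every experiment, 0.22. All 6 carry the suffix x_at, which marks probes that can also bind other transcripts.

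Of the 3 weakest GNAS probe sets, all higher in treated cells of every experiment, 2 had mean differences above 1. One went from 18.9 to 49.5, 87.5 to 144.7 and 27.3 to 126.7, and its mean difference of 1.08 ± 0.64 (standard error) did not pass (limma, adjusted p = 0.524, and 0.328 blocked). The other was dim and went from 6.1 to 99.6, 7.1 to 44.6 and 8.5 to 18.5. Its treated values all lay above its untreated values, by a mean of 1.41, and it was not called without the filter (limma, adjusted p = 0.357, and 0.202 blocked). Without both arrays of experiment 1 it was 0.93. Its highest value was on the treated array of experiment 1, which had the highest ACTB ratio. The part of that ratio in the value was not tested. By the array annotation these 2 were designed on the same GenBank sequence, which differs from the accession given for the brightest probe set; which GNAS transcript it belongs to was not worked out here. The third went from 63.9 to 107.6, 32.7 to 35.4 and 48.0 to 48.1, a mean difference of 0.24.

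**Figure D3:**
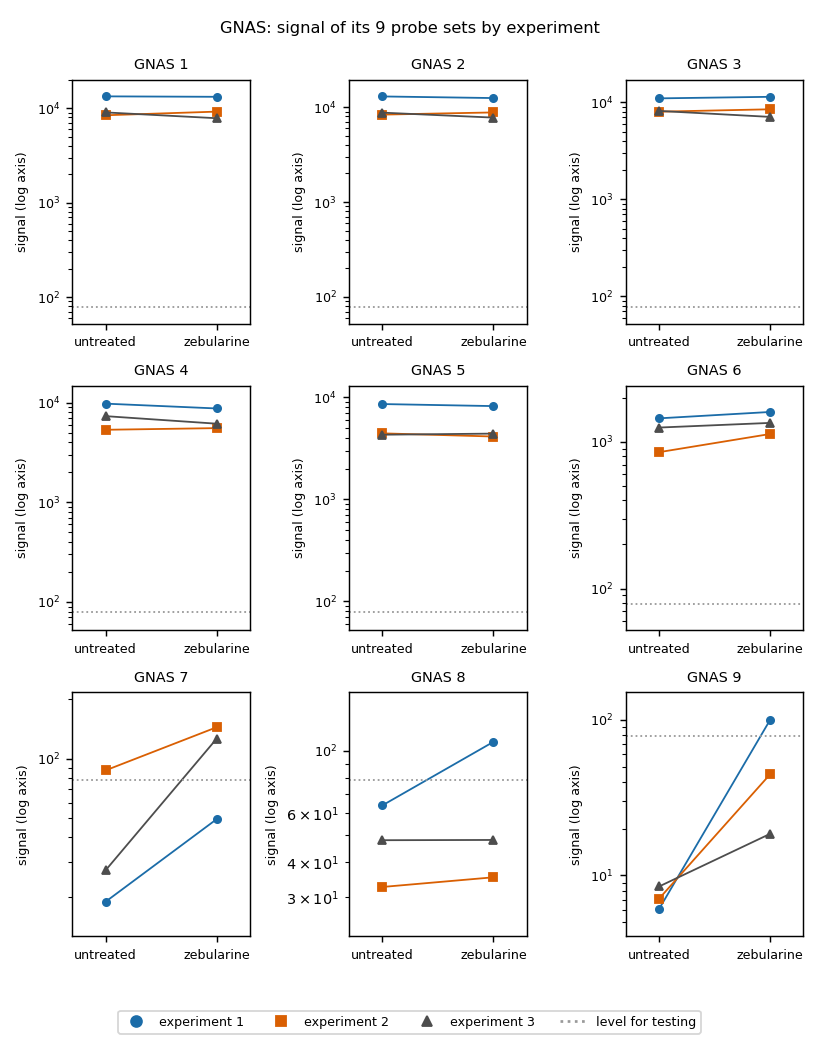
Signal (log axis) of the 9 GNAS probe sets in untreated and zebularine-treated cells, ordered from the brightest, with a line for each experiment and the level of 78.5 for testing dotted. The lines of probe sets 1 to 5 are almost flat, while those of probe sets 7 and 9 run up in all 3 experiments from untreated values of at most 87.5 and 8.5.

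PLAGL1 on chromosome 6 differed in direction between the experiments, in the same way at each of its probe sets. It encodes ZAC1, a zinc finger transcription factor that restrains growth, from the paternal copy. Its brightest probe set went from 785.3 to 878.5, 615.2 to 336.1 and 385.8 to 676.2. The 3 tested probe sets were 0.10 to 0.43 higher in experiment 1, stood at -1.13 to -0.79 in experiment 2 and were 0.78 to 1.11 higher in experiment 3. The brightest and the weakest carry the suffix x_at, so their probes can also bind other transcripts. Probe sets of 1 gene share its transcript and are not replicates, and here they gave the same order of experiments. Their mean differences were 0.03 to 0.14.

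GRB10 on chromosome 7, an adaptor of the insulin receptor whose imprinting depends on isoform and tissue, had 4 tested probe sets with means from -0.27 to 0.47. The brightest went from 1994.3 to 1565.3, 1081.0 to 1168.1 and 2222.9 to 1472.4 (limma, adjusted p = 0.747). The weakest went from 349.9 to 428.2, 160.0 to 181.4 and 169.3 to 346.1 (limma, adjusted p = 0.659 unblocked and 0.362 blocked), higher each time. The probe sets of this gene thus did not share a direction.

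L3MBTL1 on chromosome 20, a chromatin-compacting protein gene, had 4 tested probe sets with mean differences from -0.56 to 0.31 and 2 dim ones. In experiment 2 the tested probe sets ran from -1.73 to 0.26, and in experiment 1 from -0.36 to 1.79. INPP5F on chromosome 10, a phosphoinositide phosphatase gene with 1 imprinted variant, went from 134.5 to 221.2, 198.6 to 194.3 and 203.9 to 258.3, a mean difference of 0.31 ± 0.32 (standard error; limma, adjusted p = 0.729). Neither gene moved beyond the spread between arrays.

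**Figure D4:**
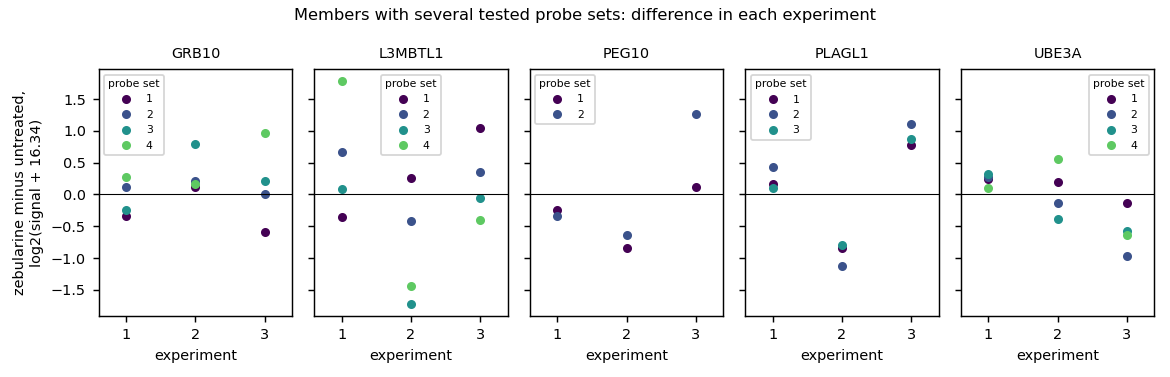
Difference between zebularine and untreated cells in each experiment, log2(signal + 16.34), for tested probe sets of 5 genes with several of them; colour gives the order of the probe set from the brightest. The 3 probe sets of PLAGL1 move together, below 0 in experiment 2 and above it in experiments 1 and 3, and the 4 of UBE3A lie above 0 in experiment 1 and below it in experiment 3, while those of L3MBTL1 spread on both sides.

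Of the remaining single loci, WT1 and DIRAS3 were dim on every array. WT1, the Wilms tumour transcription factor gene on chromosome 11, went from 58.9 to 15.0, 57.1 to 26.3 and 23.9 to 16.9 at its brighter probe set, lower each time with a mean difference of -0.77. The groups overlapped, since untreated cells of experiment 3 were below treated cells of experiment 2. Its other probe set ran from 6.7 to 38.9 and had a mean of 0.40. DIRAS3 on chromosome 1, a paternally expressed small GTPase gene that restrains growth, stayed between 35.9 and 53.4.

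Among the 23 dim member probe sets, 5 were higher in all 3 experiments, against 16.4% of all dim probe sets, and 4 were lower in all 3, against 9.58%. Treated arrays lay wholly above untreated arrays at 3, KCNQ1OT1, NDN and the dimmest GNAS probe set, against 6.73% of all dim probe sets, and wholly below at 0, against 3.45%. The median difference was 0.14, beside 0.07 over all 8667 dim probe sets. With no filter limma called 0 of the 57 member probe sets higher and 0 lower, against 0.113% and 0.0765% of all 22215. With the block as well it called 0 higher and 1 lower, SLC22A18 (adjusted p = 0.0326), against 0.842% and 0.936%. In every one of the 3 non-overlapping members the untreated signal was at most 11.4, so the size of the difference rests on the pseudocount.

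**Figure D5:**
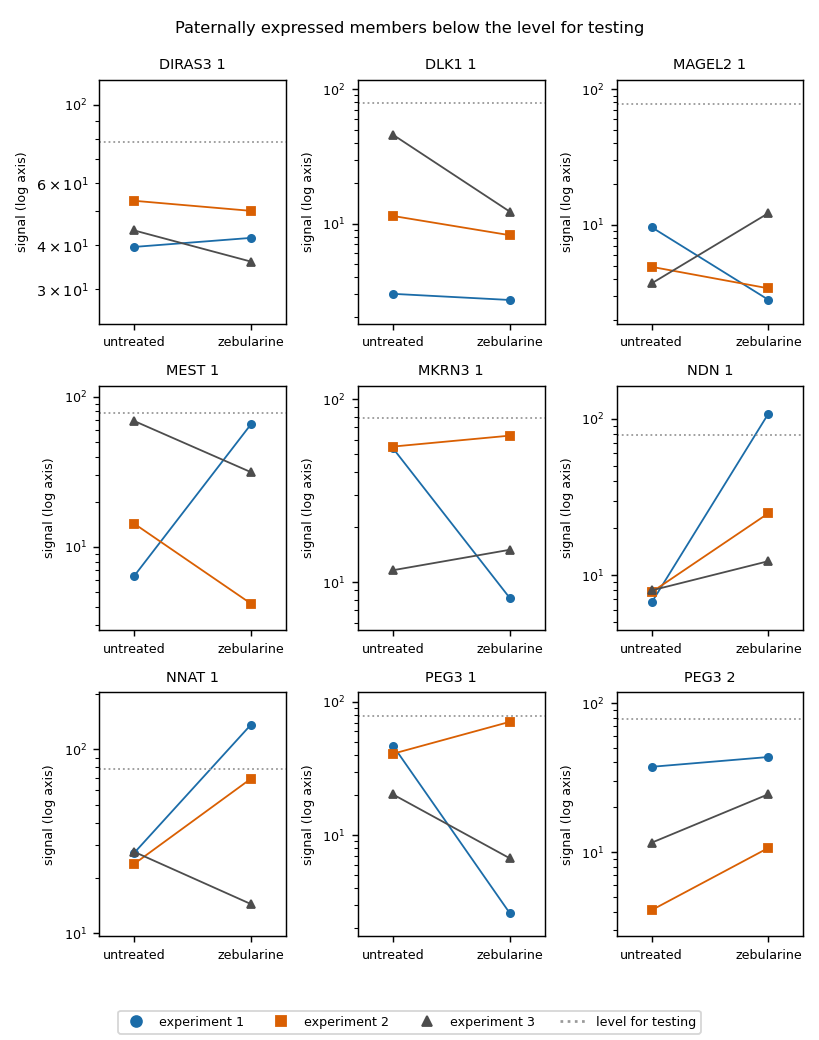
Signal (log axis) of 9 dim probe sets of paternally expressed genes in untreated and zebularine-treated cells, with a line for each experiment and the level of 78.5 for testing dotted. NDN is higher in every experiment, from at most 8.0 to between 12.3 and 107.8, while MEST, NNAT, MKRN3, MAGEL2 and the brighter PEG3 probe set change direction between experiments.

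Another 44 genes reported as imprinted served as a comparison; 28 had single-symbol probe sets and 24 of their 41 probe sets were tested. The median difference of the 24 was -0.04. Without the block 0 were called higher and 0 lower, against 0.325% and 0.295% of all tested probe sets. With it 1 was called higher and 0 lower, against 1.91% and 2.32%. That gene was RB1, the retinoblastoma tumour suppressor on chromosome 13, which went from 535.9 to 1274.8, 564.2 to 1106.4 and 627.2 to 1050.2. All treated arrays lay above all untreated ones, with a mean difference of 0.97 ± 0.24 (standard error; limma, adjusted p = 0.101, and 0.0311 in the blocked fit). The brightest of the list, TFPI2, PON2 and CD81, differed by -0.45, 0.07 and -0.43 (limma, adjusted p = 0.558, 0.933 and 0.612). CD81 lies near the KCNQ1 domain and, like SLC22A18, was lower in experiments 1 and 3, from 6001.7 to 3755.2 and from 5204.3 to 2741.4, but went from 2606.2 to 3243.3 in experiment 2. CDKN1C, the maternally expressed cyclin-dependent kinase inhibitor gene of the KCNQ1 domain and no member of the set, was chosen after its values were seen. Its 4 tested probe sets, which are of 1 gene and not replicates, had mean differences from -0.93 to -0.09. Of them 0 were called, where limma called 0.325% of all tested probe sets higher and 0.295% lower without the block. With the block those shares were 1.91% and 2.32%.

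Genes that keep imprints were listed as well, 30 in all, of which 20 had probe sets and 26 of 33 probe sets were tested. Limma called 0 of them higher and 0 lower without the block, against 0.325% and 0.295% of all tested probe sets. With the block it also called 0 of them, against 1.91% higher and 2.32% lower, and their median difference was -0.01. TRIM28, the corepressor that ZFP57 recruits, went from 4180.1 to 1843.3, 2855.9 to 2208.3 and 3241.5 to 2318.1, a mean of -0.67 (limma, adjusted p = 0.276 unblocked and 0.0846 with the block). DNMT1, the maintenance methyltransferase, differed by 0.27 and the insulator protein gene CTCF by -0.14 (limma, adjusted p = 0.704 and 0.875).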

How the data were processed

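RNA of 3 untreated and 3 treated A-498 cultures was measured on 6 Affymetrix arrays. The titles call the replicates biological, and whether cultures were otherwise independent is not stated. Unblocked p-values measure the spread between these arrays within a group. Blocked p-values measure the spread left once the experiment is taken into account. In each fit limma also draws on the spread of the other probe sets. The deposited values are linear signal intensities made with MAS5, per the submitters' processing notes; its settings were not given in the sources read, and detection calls were not used. Since MAS5 removes background and mismatch signal before scaling, dim intensities are noisy.

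Intensities were taken as log2(signal + 16.34), the median of all values divided by 8. On this scale the fold of a dim gene is understated. The array's 62 control probe sets were dropped, and 13548 of the other 22215 probe sets that reached 78.5, the 40th percentile, on at least 3 of 6 arrays were tested. The groups were compared in R 4.3.3 by two-sided limma 3.58.1 (lmFit, then eBayes with trend), with Benjamini-Hochberg adjustment over these probe sets and a call under 0.05, with the experiment number as a block as the alternative. The pairing of arrays was taken from the experiment numbers. Same-numbered arrays deviated together from their group means (r = 0.323, 0.211 and 0.272 across probe sets, which are not independent). For other pairs r was -0.19 to -0.06. Deviations within a group sum to 0, so these negative values are tied to the positive ones and are no separate evidence. No pair of arrays shared more than 0.198% of values. Python 3.11.15 and matplotlib 3.10.9 made the figures. The fits were run on simulated arrays to check that added differences were recovered at their size. Calls of single members were not checked in this way.

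The members and lists were chosen with earlier results of these data known. Values on every array are given for members called in either fit, members with 3 differences of 1 sign and a mean size of at least 0.5, the brightest member of each domain and others for description. Of the other lists, called members and up to 3 bright ones are named. Symbols came from the platform annotation, which gave 19070 probe sets 1 symbol. The number of arrays limits the precision. Other pseudocounts, filters, scalings and left-out arrays were tried.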

Additional observations from a re-analysis of the deposited data

How the results depend on the processing

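The count of called members was 0 without the block under every other setting tried, and 1, SLC22A18, with the replicate block, with the block after quantile normalization, with the block and no filter, and with the block without experiment 2; with the block it was 0 without experiment 1 or 3. The count over all tested probe sets was 84. It was 55 with the smaller pseudocount, 42 without the filter, 6 without the trend, 573 with the block, 623 with block and quantile normalization and 395 with the block and no filter. Leaving out arrays gave 0 to 96 without the block, and with it 195, 1024 and 335 without experiments 1, 2 and 3. The members' median of 0.10 was 0.084 with the larger pseudocount, 0.079 with the level required on all 6 arrays, 0.12 after median centring, 0.12 with the brightest probe set of each gene where tested (14 genes) and 0.14 with the brightest tested one (15 genes, chosen after seeing the data). It ran from -0.033 to 0.17 with arrays left out, and with the block it was -0.0070, 0.061 and 0.068 without experiments 1, 2 and 3. Of the named members 3 changed sign. The brightest GNAS probe set, at -0.03, was at 0.047 after quantile normalization with or without the block and ran from -0.24 to 0.17 with arrays left out, at 0.056 with the block without experiment 3. CPA4, at 0.14, ran from -0.28 to 0.39, with -0.28 also in the block without experiment 3, and UBE3A, at 0.11, from -0.079 to 0.24. Leaving out single arrays moved SLC22A18 from -1.23 to -0.58, its sign being the same throughout, and the cause of these shifts was not tested. Settings that combine the block with no filter or with a left-out experiment were chosen after seeing the data. Signal over background limits the dim members: their sizes depend on the pseudocount.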
